A study of Mus musculus with 9 samples.

Results

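The genes described here are 41 enzymes and carriers with which the mouse liver breaks down amino acids and turns their nitrogen into urea. They are a given list of genes, chosen with earlier results of these data known. Shares of all genes are therefore set beside their counts as a description and not as a test of the list. The genes are ordered here into 9 routes: the urea cycle (7 genes), glutamate, ornithine and proline (5), the aminotransferases (4), phenylalanine and tyrosine (6), tryptophan (6), histidine (4), serine, glycine and glyoxylate (5), branched chain amino acids (3) and lysine (1). All 41 of the 41 listed genes stood in both deposited tables with a mean of at least 10 in each, out of 12477 genes for which this held and 16521 genes in either table. The lowest mean of a member was 111, for Afmid.

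The series holds 9 liver RNA libraries from the mouse strain C57BL/6, with 3 groups and 3 samples in each. The normal group received normal saline and no deficient diet. The model group was fed a diet deficient in methionine and choline (MCD), a common way to give rodents a fatty, inflamed and scarred liver. The SAR group was fed the same diet and was treated with SAR, sarsasapogenin, at a dose the labels call high. Sarsasapogenin is a plant steroid (a sapogenin) found in Anemarrhena. The model and SAR groups thus share the MCD diet, and no group received SAR without it. The amount of SAR, the length of feeding, and the age and sex of the mice were each not given in the sources used here. The labels do not say whether the samples of a group are separate animals, so the p-values speak for the spread between these samples alone, which may be technical.

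Amino acids that are not used for protein are stripped of their nitrogen mainly in hepatocytes. Aminotransferases collect amino groups on glutamate and aspartate, glutamate dehydrogenase and glutaminase free ammonia from glutamate and glutamine, and the urea cycle of periportal hepatocytes binds ammonia and the nitrogen of aspartate into urea. The carbon skeletons go to glucose, ketone bodies or the citrate cycle, and many of these enzymes are known as targets of glucagon and glucocorticoid signalling in fasting and protein feeding.

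The deposited tables give group means only, but the reads of each library could be recovered from them, for all 41 genes in all 9 libraries. Values below are normalised reads, the reads of a library divided by its size factor on a scale common to the 9 libraries. Within a group the library with the largest size factor is called a, the next b and the one with the smallest c. These letters carry no replicate number of the labels, and 3 values in a row are always in the order a, b, c. Recovered reads per library ranged from 9778655 to 14939063. Differences are log2 fold changes ± SE from limma on log2(value + 1), with p adjusted by Benjamini-Hochberg over all genes tested, and "rose" or "fell" means an adjusted p below 0.05.

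In the normal and model groups 1 library stood apart from the other two. Across genes, log2 values of normal libraries a and b had a Pearson r of 0.978, and those with library c 0.936 and 0.928. In the model group the same values were 0.981 for a and b, and 0.933 and 0.945 with c, whereas in the SAR group they lay between 0.965 and 0.972. Normal library c carried more of 10 summed neutrophil markers (7792, against 105 as the lowest in its group) and less of 8 summed male-biased liver genes (11800 against 263206 as the highest). Model library c carried the most of 7 summed pericentral hepatocyte markers (31782, against 5873 as the lowest in its group). The part these libraries play in the results was not tested, and counts without them are given beside the main ones.

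Hepatocyte markers were lower in the model livers as a sum, and those of some other cell types were higher. The sum of 11 hepatocyte markers was 932719 to 1099937 normalised reads in the normal, 458927 to 838199 in the model and 1064013 to 1097651 in the SAR libraries. Alb was left out because its reads were not resolved in 2 groups. Of the 11 markers, 2 were lower in the model and 4 higher with SAR. Beside this and the counts below, 19.2% of all genes tested fell and 19.7% rose in the model. With SAR 13.5% rose and 16.0% fell. The 2 of 11 lie near the share of all genes, so that count says nothing about the list. Single markers differed: in the model Cyp2e1 was at 14429, 13743 and 119815 (normal 153942 to 182226), and Ahsg at 89671 to 117819 (normal 86641 to 133551). Macrophage and Kupffer cell markers summed to 5764 to 8570 in the normal, 17064 to 20153 in the model and 5748 to 8495 in the SAR libraries. The list moved both ways: 7 of 12 markers rose and 2 fell in the model, and 8 fell with SAR. For SAR against normal 6 were higher and 2 lower, although the sums cover a like range. Of all genes tested there, 1.61% were higher and 1.66% lower. Stellate cell and fibroblast markers summed to 1040 to 4420, 10678 to 25944 and 3661 to 6655, and cholangiocyte markers to 611 to 1031, 2155 to 11270 and 934 to 1940, with 6 of 9 and 7 of 8 markers higher in the model and 8 of 9 and 5 of 8 lower with SAR. T and NK cell markers summed to 88 to 102, 447 to 636 and 137 to 260, with 6 of 6 higher in the model and 3 of 6 lower with SAR. Sums of sinusoidal endothelium (2162 to 4427, 2722 to 3040 and 1270 to 2514) and neutrophil markers (105 to 7792, 1272 to 2855 and 233 to 600) overlapped between normal and model, with 1 higher and 2 lower of 7 and 1 higher of 9, and of 4 B cell markers none passed in the model or with SAR. For the neutrophil sums the overlap of normal and model came from normal library c alone, at 7792. The other normal libraries lay below all model libraries in that sum. With SAR, 2 of 7 endothelial and 7 of 9 neutrophil markers fell. None of the markers on these 7 lists was at 0 in all libraries of a group. Their part in the results below was not tested, and in bulk liver fewer cells of a type and less RNA per cell cannot be told apart.

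In the model livers the genes of amino acid breakdown were lower along every route. Of the 41 genes, 34 fell and none rose, against 19.2% of all 12652 genes tested that fell and 19.7% that rose. The 3 model libraries lay below the 3 normal libraries without overlap for 36 of the 41 genes, against 26.8% of all genes tested. The median log2 fold change of the 41 genes was -1.25, beside 0.02 over all genes tested, and their mean level in the model was 40.6% of normal as a median, from 12.3% for Tdo2 to 83.4% for Otc. The 7 genes that did not pass were Otc, Gls2, Aldh4a1, Gpt2, Acmsd, Sds and Bckdhb, each with a fold change below 0. In the authors' deposited table, 32 of the 41 had an adjusted p below 0.05 and lay lower, against 10.3% of 16374 genes. That share is over every gene there, also those with few reads, and so is not like the 19.2% above. Without normal library c and model library c together 37 of the 41 passed. The count over all genes rose there too, to 7382 of 12736 tested, from 4922 of 12652 with all libraries. With 1 library left out at a time 22 to 35 of the 41 passed, and 2415 to 5823 of all genes tested. The count of members was 22 without model library a or normal library a. Without model library c Aldh4a1, Gpt2 and Bckdhb passed as well.

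In livers of mice given SAR with the diet, the same list stood higher than in the model. Of the 41 genes, 28 rose and none fell, against 13.5% of 12530 genes tested that rose and 16.0% that fell. The SAR libraries lay above the model libraries without overlap for 29 genes, against 22.3% of all genes tested. The median log2 fold change was 0.98, beside 0.02 over all genes tested, and all 41 values were above 0. The 13 genes that did not pass were Ass1, Slc25a15, Oat, Gls2, all 4 aminotransferases, Gstz1, Acmsd, Sdsl, Gldc and Bckdhb. In the authors' deposited table, 26 of the 41 passed and lay higher, against 6.79% of 16294 genes. Here too the share is over every gene, also those with few reads, unlike the 13.5% above. With 1 library left out at a time, 10 to 35 of the 41 genes passed: 10 without SAR library b, 17 without SAR library c, 15 without model library a, 13 without model library b, and 35 without model library c. Over all genes tested 1811, 2284, 1703, 1572 and 5198 passed in the same runs, against 3694 with all libraries. Without model library c the added genes were Ass1, Slc25a15, Oat, Got2, Gpt, Gstz1 and Bckdhb (adjusted p = 3.83e-04 to 0.0403). Of these, Ass1 and Got2 also passed in the authors' deposited table (adjusted p = 0.0168 and 0.0303), Ass1 without the variance trend (adjusted p = 0.0444) and Gstz1 with a pseudocount of 5 (adjusted p = 0.0499). SAR library b held the highest value of its group for 37 of the 41 genes and model library a the lowest of its group for 33, against 30.1% and 35.6% of 12385 genes.

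The model libraries serve in both comparisons, so the falls and the rises share data and do not count as separate evidence. Against the normal livers, the SAR livers had a median level of 79.8% of normal over the 41 genes. Otc was higher than normal, Slc25a15 and Aass were lower, and the other 38 did not pass, against 1.61% of 11699 genes tested that were higher and 1.66% that were lower. The SAR libraries lay wholly below the normal libraries for 16 of the 41 genes, against 17.3% of all genes tested, and wholly above them for 2, Otc and Aldh4a1, against 15.9%. With 1 library left out at a time the count of 3 went from 0 to 7. Over all genes tested the count, 382 with all libraries, went from 5 to 1079. The count of members was 0 without any single SAR library, normal library a or normal library b. It was 7 without normal library c, where 1079 of all genes tested passed.

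**Figure D1:**
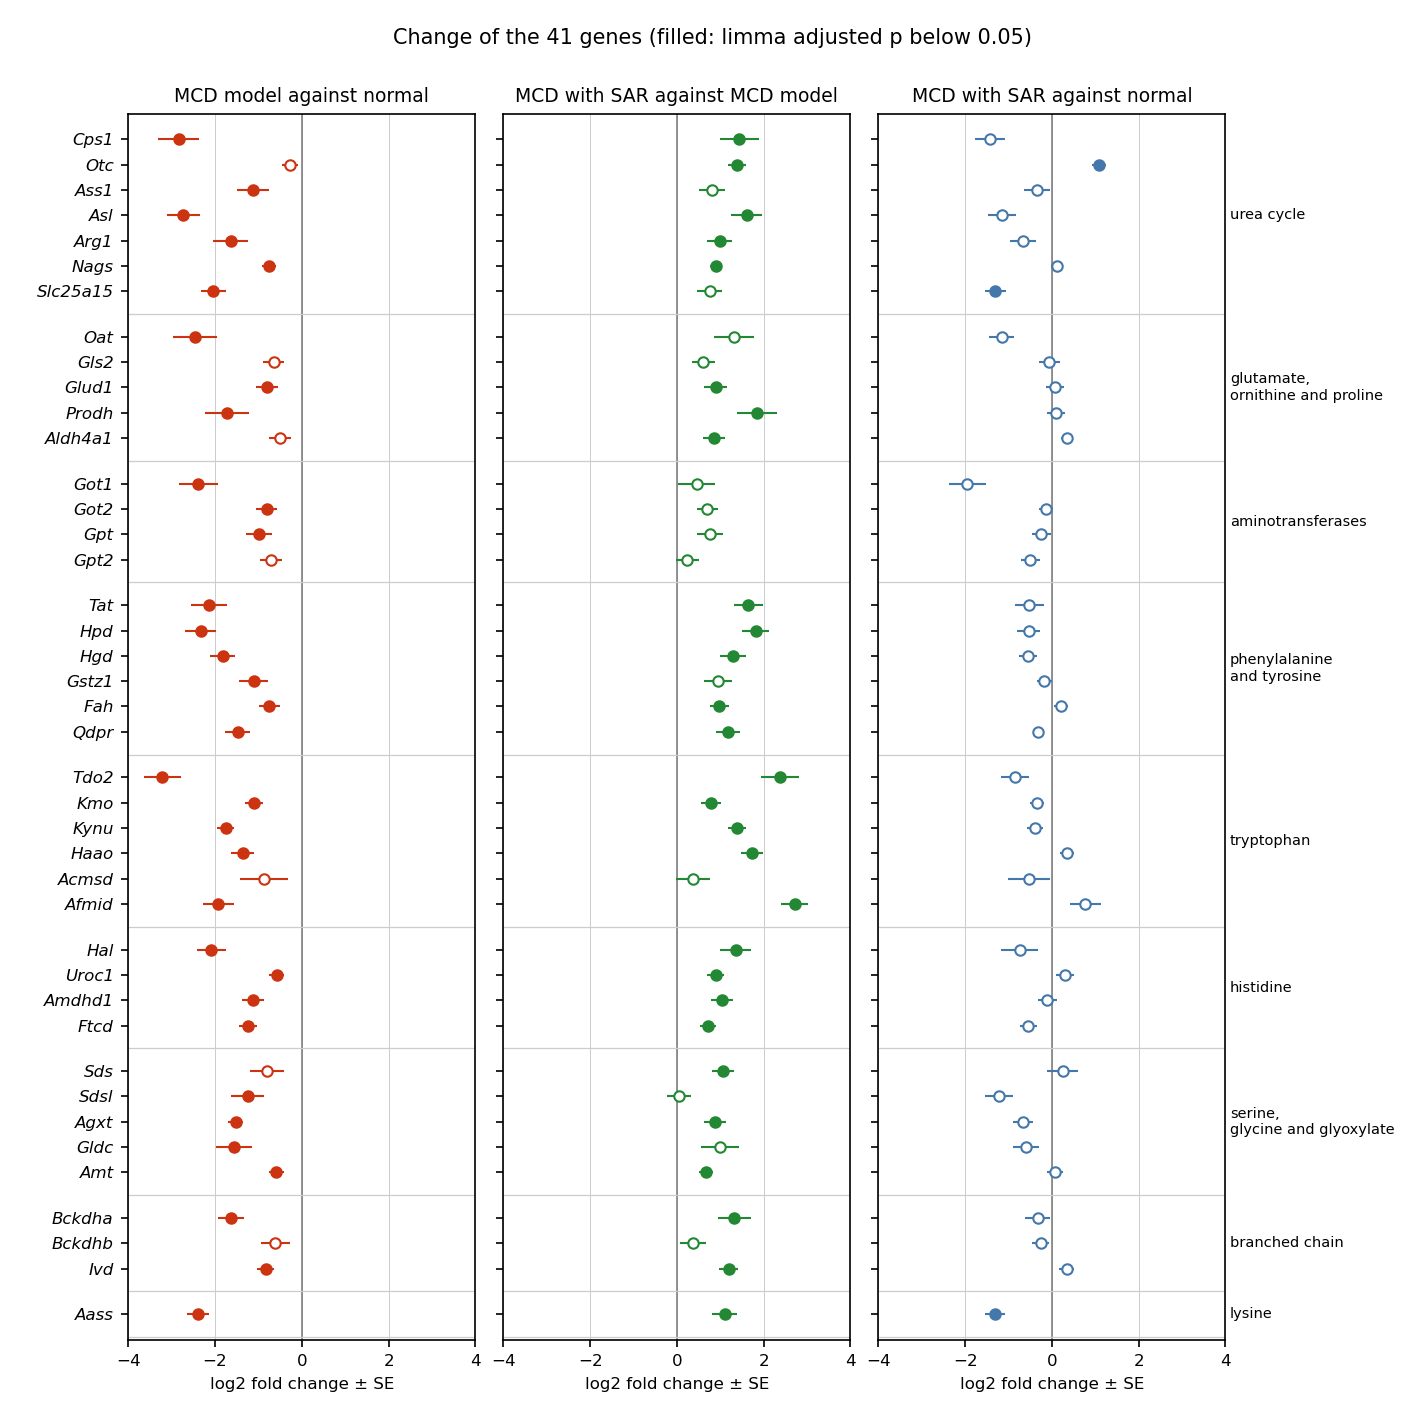
Log2 fold change ± SE (x axis) of each of the 41 genes (y axis, grouped by route) in the 3 comparisons; filled points have a limma adjusted p below 0.05. All 41 points lie below 0 for the model against normal and above 0 for SAR against the model, and 3 filled points remain for SAR against normal.

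By route, the median log2 fold change in the model was -1.64 for the urea cycle, -1.65 for phenylalanine and tyrosine, -1.56 for tryptophan and -2.39 for the single lysine gene. It was -1.18 for histidine, -1.25 for serine, glycine and glyoxylate, -0.89 for the aminotransferases, -0.83 for branched chain amino acids and -0.80 for glutamate, ornithine and proline. The order with SAR against the model differed: the tryptophan genes had a median of 1.56, phenylalanine and tyrosine 1.23, branched chain 1.19, lysine 1.10, the urea cycle 0.98, histidine 0.96, glutamate, ornithine and proline 0.89, serine, glycine and glyoxylate 0.87, and the aminotransferases 0.58. The aminotransferases were the route in which no gene passed with SAR in the limma fit of all libraries, though Got2 passed in the authors' deposited table (adjusted p = 0.0303) and Got2 and Gpt without model library c. Differences between routes were not tested.

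**Figure D2:**
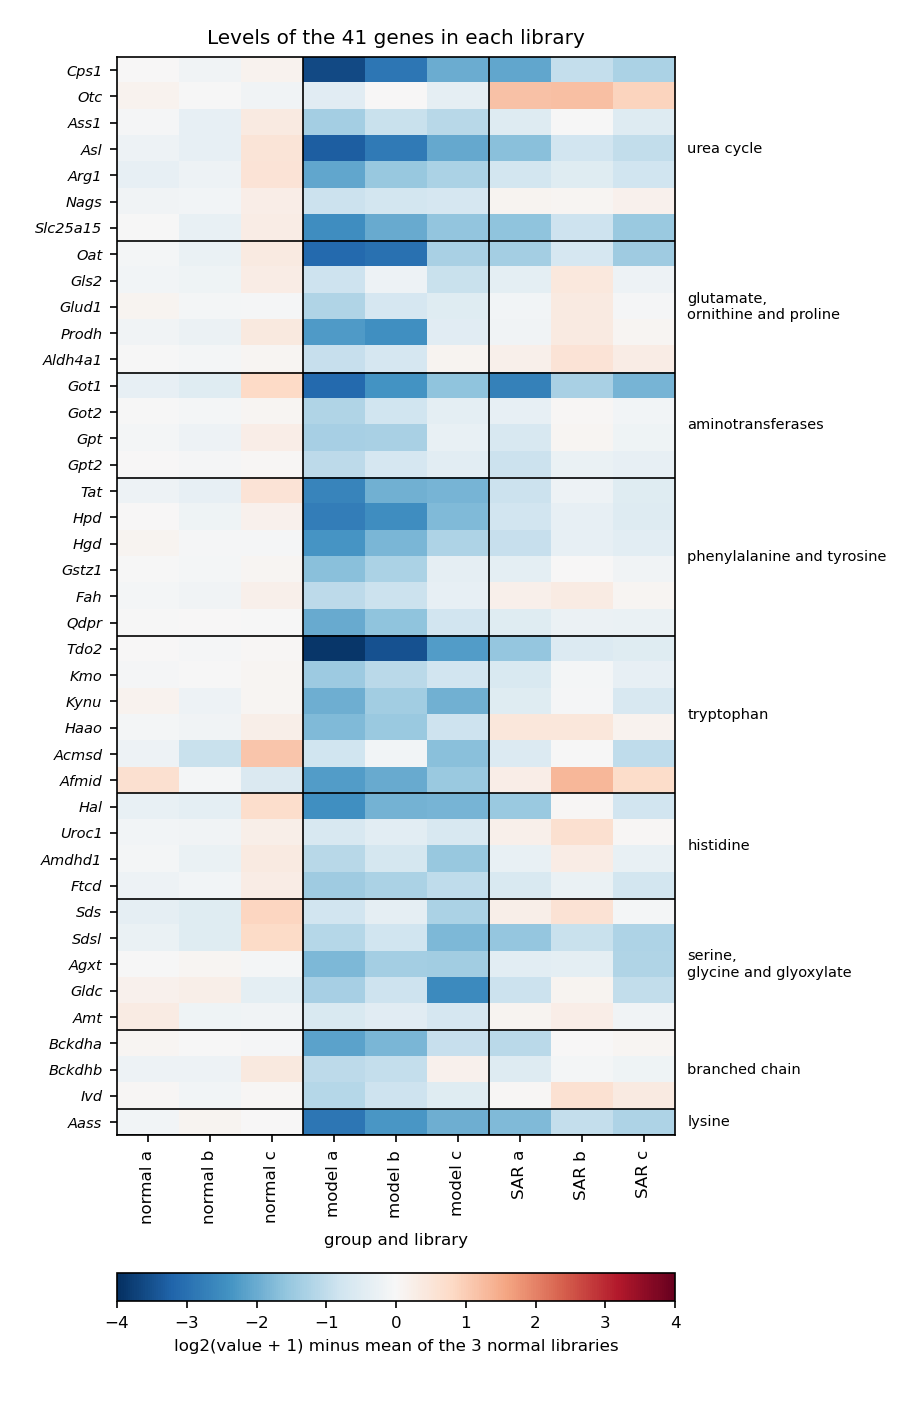
Level of each gene (rows, grouped by route) in each of the 9 libraries (columns), as log2(value + 1) minus the mean of the 3 normal libraries. The model columns run from -3.89 to 0.16 and the SAR columns from -2.69 to 1.34.

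RefSeq promoters (GRCm38.p6) were at hand for 33 of the 41 genes, 36 promoters in all. The 250 bases before the start were searched on both strands for letters bound by liver factors: TTGCNNAA for C/EBP, GTTAAT as part of an HNF1 site, CAAAGTCCA for HNF4 and TGACG as the core of a cAMP response element. TTGCNNAA stood in 4 of the 36 member promoters (11.1%) and in 9.56% of 32851 promoters, GTTAAT in 4 (11.1%) and 6.43%, TGACG in 4 (11.1%) and 17.8%, and CAAAGTCCA in 0 and 0.384%. None of these motifs contains another, and a match is a description of letters only. The promoters below are those of Tdo2, with the largest fall, of Otc, which did not fall, and of Aass, Hal and Haao, which fell and hold a match, shown in capitals. In Aass these are TGACG and a C/EBP match, in Hal a C/EBP match and in Haao the HNF1 letters on the reverse strand. The windows of Tdo2 and Otc hold none of these letters.
Tdo2 (chr3:81975729-81975978, minus strand): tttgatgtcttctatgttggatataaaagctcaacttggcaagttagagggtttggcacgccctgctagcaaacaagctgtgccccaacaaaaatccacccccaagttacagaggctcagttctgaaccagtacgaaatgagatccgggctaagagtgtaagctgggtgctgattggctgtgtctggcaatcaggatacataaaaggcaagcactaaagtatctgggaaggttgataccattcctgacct
Otc (chrX:10252055-10252304, plus strand): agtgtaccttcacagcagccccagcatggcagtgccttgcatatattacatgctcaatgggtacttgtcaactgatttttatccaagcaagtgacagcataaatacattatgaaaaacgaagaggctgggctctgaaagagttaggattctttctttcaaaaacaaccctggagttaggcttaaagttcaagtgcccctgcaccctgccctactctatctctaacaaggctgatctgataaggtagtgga
Aass (chr6:23132987-23133236, minus strand): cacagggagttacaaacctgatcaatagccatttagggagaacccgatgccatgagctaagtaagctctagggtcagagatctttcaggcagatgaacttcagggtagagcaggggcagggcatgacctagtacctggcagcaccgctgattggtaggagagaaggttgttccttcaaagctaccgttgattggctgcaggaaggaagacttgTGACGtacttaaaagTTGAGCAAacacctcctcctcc
Hal (chr10:93488518-93488767, plus strand): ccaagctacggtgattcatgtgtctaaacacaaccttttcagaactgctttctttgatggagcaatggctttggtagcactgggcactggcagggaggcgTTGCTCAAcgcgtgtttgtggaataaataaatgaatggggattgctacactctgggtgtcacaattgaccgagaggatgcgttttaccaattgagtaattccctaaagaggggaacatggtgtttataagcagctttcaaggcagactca
Haao (chr17:83846791-83847040, minus strand): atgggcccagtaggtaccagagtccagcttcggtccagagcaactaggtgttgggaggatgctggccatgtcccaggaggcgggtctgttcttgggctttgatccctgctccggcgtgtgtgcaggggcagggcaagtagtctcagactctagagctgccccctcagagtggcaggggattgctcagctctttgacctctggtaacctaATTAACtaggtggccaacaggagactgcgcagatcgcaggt

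In the urea cycle 6 of 7 genes fell in the model and 5 rose with SAR, and the exception among the falls was Otc. Cps1 encodes carbamoyl phosphate synthetase, the mitochondrial entry step that joins ammonia to bicarbonate. It stood at 81940, 72610 and 88897 normalised reads in the normal libraries, 6656, 10802 and 20371 in the model libraries and 19346, 42150 and 33627 in the SAR libraries. All model libraries lay far below all normal ones, and SAR library a lay just below model library c. Cps1 fell by 2.84 ± 0.47 (adjusted p = 0.00485) in the model, and with SAR it rose by 1.43 ± 0.45 (adjusted p = 0.0411). That rise missed the threshold in the authors' deposited table (adjusted p = 0.0605) and did not pass without SAR b or c or model a or b (adjusted p = 0.122 to 0.148). Nags makes N-acetylglutamate, the activator that Cps1 needs. Its values were 723, 750 and 962 normalised reads in the normal libraries, 443, 482 and 510 in the model libraries and 866, 849 and 903 in the SAR libraries, so that the model libraries lay below all others. It fell by 0.76 ± 0.16 (adjusted p = 0.00918) and rose by 0.89 ± 0.14 (adjusted p = 0.00297) with SAR, to the level of the normal libraries.

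Otc, ornithine transcarbamylase, makes citrulline in the step after Cps1. Its values were 4419, 4008 and 3676 normalised reads in the normal libraries, 2936, 4046 and 3117 in the model libraries and 9012, 9319 and 7418 in the SAR libraries. The model libraries overlapped the normal ones, and all SAR libraries lay above both other groups. The model against normal difference of -0.28 ± 0.19 did not pass (adjusted p = 0.259). With SAR Otc rose by 1.38 ± 0.20 (adjusted p = 0.00249) against the model and stood above normal by 1.09 ± 0.16 (adjusted p = 0.0281), at 213% of the normal mean. The difference from normal did not pass without SAR a, b or c or normal a or b (adjusted p = 0.0565 to 0.104). Unlike Otc, Slc25a15, the carrier that brings ornithine into mitochondria, stood below normal in the SAR group. It was at 9832, 8117 and 12077 normalised reads in the normal libraries, 1746, 2428 and 3343 in the model libraries and 3245, 5599 and 3539 in the SAR libraries. Both MCD groups lay below the normal group, and they overlapped each other. Slc25a15 fell by 2.04 ± 0.28 (adjusted p = 0.00279) in the model, its difference with SAR did not pass (0.75 ± 0.29, adjusted p = 0.0763), and in the SAR group it stayed below normal, by -1.30 ± 0.25 (adjusted p = 0.0392). The last of these did not pass without SAR a, b or c or normal a or b (adjusted p = 0.0647 to 0.119).

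The cytosolic enzymes of the cycle are Ass1, which joins citrulline and aspartate, Asl, which splits the product into arginine and fumarate, and Arg1, which releases urea. Asl was at 23971, 21986 and 39562 normalised reads in the normal libraries, 2796, 3879 and 6711 in the model libraries and 8610, 16276 and 13858 in the SAR libraries. The 3 groups did not overlap, with SAR between model and normal. Asl fell by 2.73 ± 0.39 (adjusted p = 0.00306) and rose by 1.60 ± 0.36 (adjusted p = 0.012) with SAR. The rise did not pass without SAR b (adjusted p = 0.0562) or model b (adjusted p = 0.0531). Arg1 was at 36997, 40072 and 67402 normalised reads in the normal libraries, 10882, 16084 and 19251 in the model libraries and 27840, 33138 and 26708 in the SAR libraries, again with no overlap between the groups. It fell by 1.64 ± 0.40 (adjusted p = 0.0169) and rose by 0.98 ± 0.30 (adjusted p = 0.0358). The fall of Arg1 did not pass without model a or b (adjusted p = 0.0575 and 0.071), and its rise did not pass without SAR a, b or c or model a or b (adjusted p = 0.0726 to 0.128). Ass1 was at 45281, 37190 and 60259 normalised reads in the normal libraries, 18070, 25132 and 21632 in the model libraries and 32504, 46578 and 32678 in the SAR libraries. The model libraries were the lowest, and the SAR and normal libraries overlapped. Ass1 fell by 1.13 ± 0.37 (adjusted p = 0.0447), which did not pass without model a or b or normal a, b or c (adjusted p = 0.0657 to 0.127), and its difference with SAR of 0.80 ± 0.30 did not pass (adjusted p = 0.0734). In the authors' deposited table that difference passed (adjusted p = 0.0168).

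**Figure D3:**
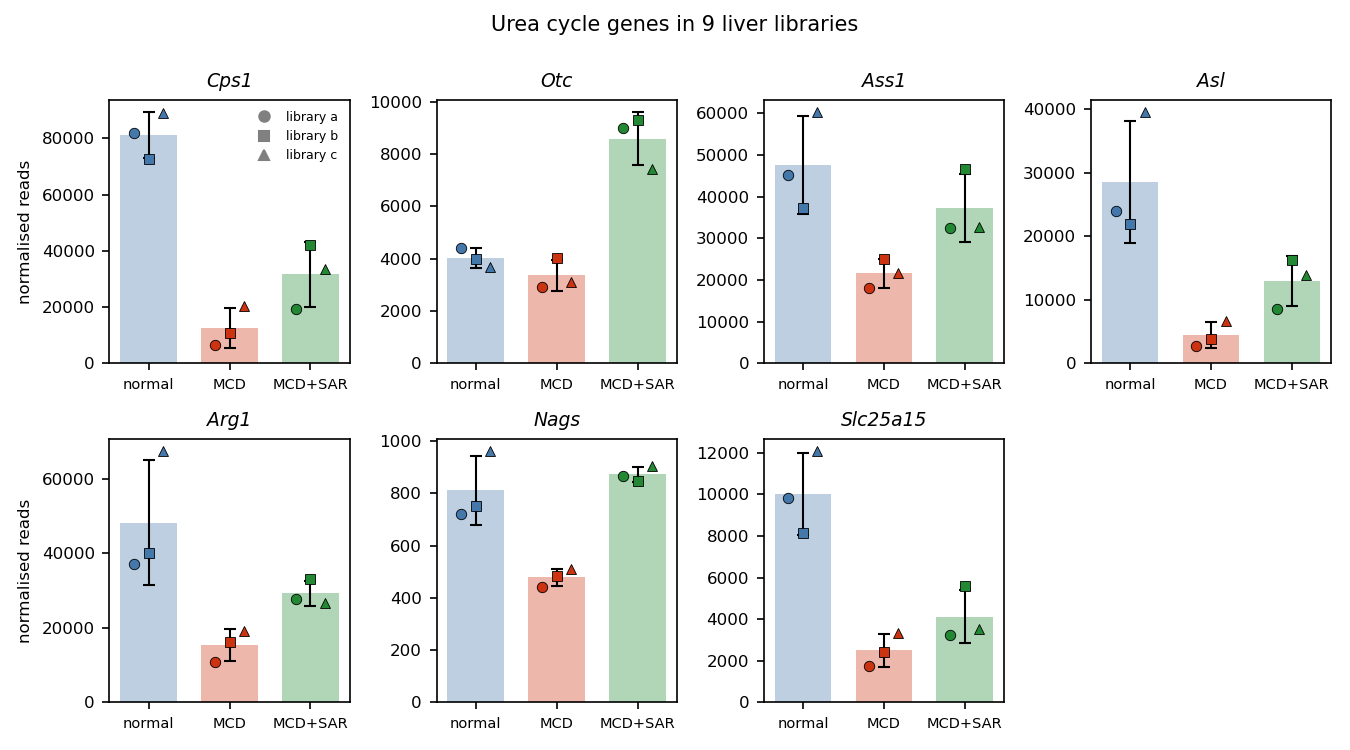
Normalised reads (y axis, from 0) of the 7 urea cycle genes in the normal, MCD model and MCD with SAR groups; symbols are libraries a, b and c, bars are means and whiskers ± SD (n = 3). Otc is the gene whose SAR libraries, 7418 to 9319, all lie above its normal libraries, 3676 to 4419.

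Of the 5 genes around glutamate, ornithine and proline, 3 fell in the model and 3 rose with SAR. Oat, ornithine aminotransferase, turns ornithine into glutamate semialdehyde and is known from pericentral hepatocytes. It was at 35020, 31117 and 47646 normalised reads in the normal libraries, 4366, 4761 and 15270 in the model libraries and 14434, 23476 and 13801 in the SAR libraries. Model library c held more than the other two model libraries together, and it lay within the range of the SAR libraries. In that library Glul, glutamine synthetase of the pericentral zone, stood at 24535 normalised reads, against 4780 and 4199 in model libraries a and b. The part of this library in the value was not tested. Oat fell by 2.46 ± 0.51 (adjusted p = 0.00945), whichever library was left out, and the difference with SAR of 1.32 ± 0.47 did not pass (adjusted p = 0.0611). That difference passed without model c (adjusted p = 0.000383).

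Prodh, proline dehydrogenase, starts proline breakdown. It was at 1957, 1844 and 2829 normalised reads in the normal libraries, 448, 396 and 1595 in the model libraries and 1969, 2786 and 2268 in the SAR libraries, and again model library c was the highest of its group, while the SAR libraries lay within the normal range. Prodh fell by 1.73 ± 0.50 (adjusted p = 0.0303) and rose by 1.84 ± 0.46 (adjusted p = 0.0185) with SAR. The fall did not pass without model a or b or normal a, b or c (adjusted p = 0.0597 to 0.111), and the rise not without SAR b or c or model a or b (adjusted p = 0.056 to 0.0763). Aldh4a1 takes the product of Prodh and Oat on to glutamate. Its values were 1689, 1615 and 1800 normalised reads in the normal libraries, 891, 1075 and 1835 in the model libraries and 1954, 2469 and 2076 in the SAR libraries. Model library c lay above all 3 normal libraries, and the SAR libraries lay above both groups. The difference of -0.50 ± 0.26 in the model did not pass (adjusted p = 0.158), whereas Aldh4a1 rose by 0.86 ± 0.26 (adjusted p = 0.0354) with SAR. This rise did not pass without SAR a, b or c or model a or b (adjusted p = 0.0564 to 0.126).

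Glud1, glutamate dehydrogenase, frees ammonia from glutamate. It was at 13913, 12337 and 12491 normalised reads in the normal libraries, 5602, 8053 and 9150 in the model libraries and 11986, 16711 and 12492 in the SAR libraries, with the model lowest and SAR and normal overlapping. Glud1 fell by 0.80 ± 0.25 (adjusted p = 0.0409) and rose by 0.89 ± 0.26 (adjusted p = 0.0321). Neither call was firm: the fall did not pass without model a or b or normal a, b or c (adjusted p = 0.0536 to 0.134), and the rise not without SAR b or c or model a or b (adjusted p = 0.08 to 0.125). Gls2, the liver form of glutaminase, passed in no comparison with all libraries, with means of 4217 ± 757, 2738 ± 757 and 4128 ± 1275 normalised reads (SD, n = 3) in normal, model and SAR. Its model libraries lay below the normal ones (3611 as the highest, 3702 as the lowest), with a limma adjusted p of 0.0609, and of 0.0444 without model library b.

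The aminotransferases fell in the model in 3 of 4 cases, and with all libraries none passed with SAR. Got1 is the cytosolic aspartate aminotransferase, which supplies aspartate nitrogen. It was at 10043, 9042 and 21598 normalised reads in the normal libraries, 1444, 2380 and 4058 in the model libraries and 1939, 5100 and 3446 in the SAR libraries. Normal library c was more than the other two together, and the SAR and model libraries overlapped. Got1 fell by 2.39 ± 0.46 (adjusted p = 0.00758), whichever library was left out, and with SAR it differed by 0.46 ± 0.42 (adjusted p = 0.437). At 25.8% of the normal mean in the SAR group it was the member furthest below normal there (-1.95 ± 0.42, adjusted p = 0.0501), and it passed without normal c (adjusted p = 0.0242).

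Got2, the mitochondrial aspartate enzyme, was at 7643, 7332 and 8067 normalised reads in the normal libraries, 3321, 4384 and 5908 in the model libraries and 6143, 7910 and 7180 in the SAR libraries. Gpt, the cytosolic alanine aminotransferase measured in blood as ALT, was at 3997, 3703 and 5069 normalised reads in the normal libraries, 1692, 1717 and 3406 in the model libraries and 2705, 4464 and 3770 in the SAR libraries. For both the model libraries were below the normal ones, and the SAR range of Got2 lay wholly above its model range, whereas that of Gpt did not. Got2 fell by 0.81 ± 0.24 (adjusted p = 0.0345) and Gpt by 0.98 ± 0.30 (adjusted p = 0.0346). The fall of Got2 did not pass without model a or b or normal a, b or c (adjusted p = 0.0595 to 0.112), and that of Gpt not without model a or b or normal a, b or c (adjusted p = 0.0635 to 0.127). With SAR, Got2 differed by 0.70 ± 0.24 (adjusted p = 0.0568) and Gpt by 0.76 ± 0.30 (adjusted p = 0.0868). Both passed without model library c (adjusted p = 0.00493 and 0.00281), and Got2 also in the authors' deposited table (adjusted p = 0.0303). Gpt2, the mitochondrial alanine enzyme, passed in no comparison with all libraries, with means of 13936 ± 545, 8673 ± 1909 and 10067 ± 2155 normalised reads (SD, n = 3) in normal, model and SAR. For the model against normal, the limma adjusted p of Gpt2 was 0.0546. It passed without model library c (adjusted p = 0.0153) and without the variance trend (adjusted p = 0.0399). It passed in the authors' deposited table too (adjusted p = 0.024).

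**Figure D4:**
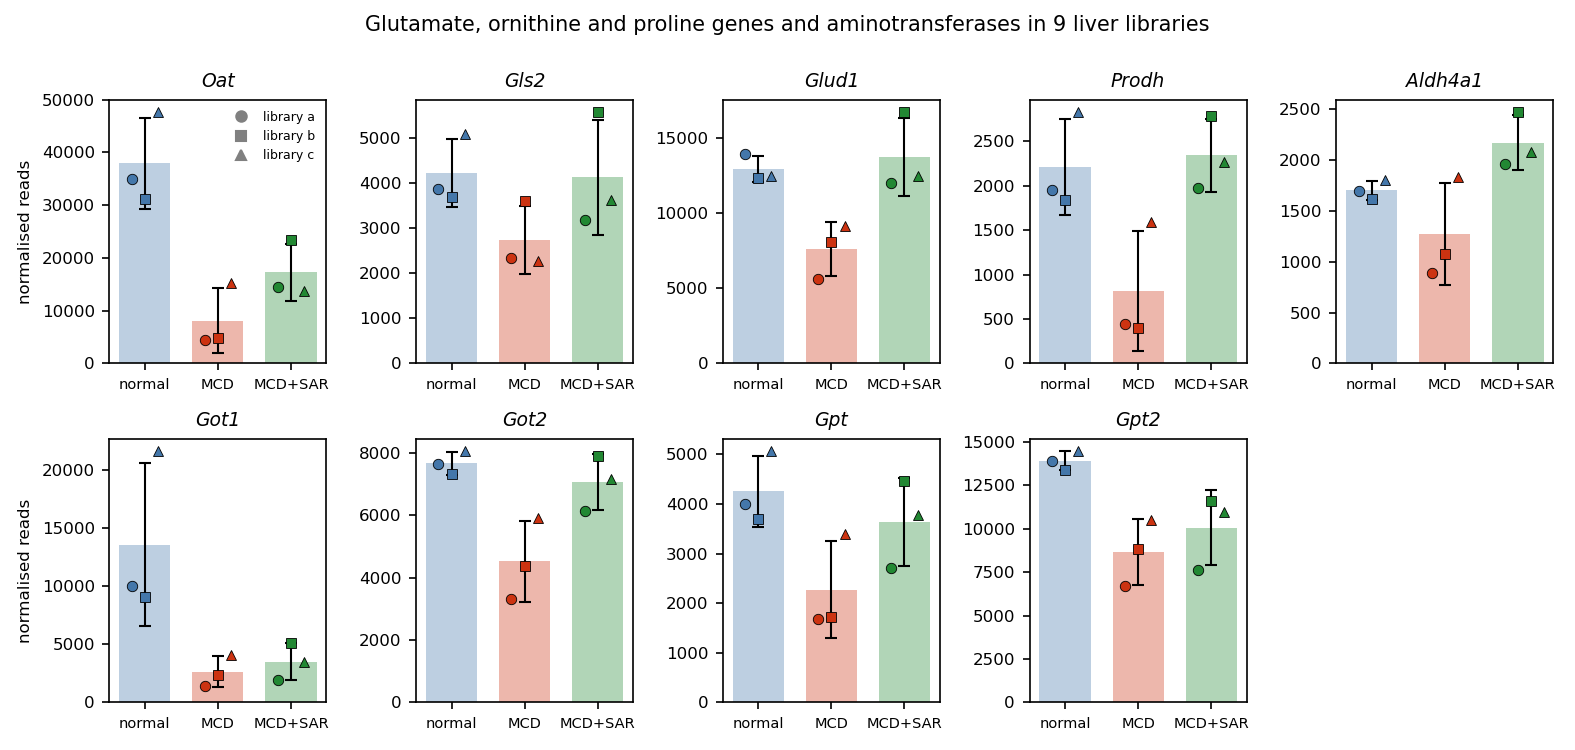
Normalised reads (y axis, from 0) of the 5 glutamate, ornithine and proline genes and the 4 aminotransferases; symbols are libraries a, b and c, bars are means and whiskers ± SD (n = 3). Got1 stays low with SAR (1939 to 5100), whereas Prodh with SAR (1969 to 2786) lies within its normal range (1844 to 2829).

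All 6 genes of phenylalanine and tyrosine fell in the model, and 5 rose with SAR. Tat, tyrosine aminotransferase, removes the amino group of tyrosine and is a classic glucocorticoid target. It was at 52055, 47737 and 87310 normalised reads in the normal libraries, 9675, 15845 and 16653 in the model libraries and 33073, 52110 and 43077 in the SAR libraries. Its model libraries were the lowest, with SAR and normal overlapping. Tat fell by 2.14 ± 0.41 (adjusted p = 0.00766) and rose by 1.65 ± 0.33 (adjusted p = 0.00789), and both calls held whichever library was left out. Hpd, the dioxygenase of the next step, was at 50228, 43608 and 55216 normalised reads in the normal libraries, 7349, 8928 and 14695 in the model libraries and 29247, 39802 and 34250 in the SAR libraries. Here the 3 groups were apart, with SAR in between. Hpd fell by 2.33 ± 0.36 (adjusted p = 0.00387) and rose by 1.82 ± 0.31 (adjusted p = 0.00482), again whichever library was left out.

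Hgd, homogentisate dioxygenase, follows Hpd. It was at 11397, 10228 and 10313 normalised reads in the normal libraries, 2056, 2984 and 4487 in the model libraries and 5562, 8536 and 7969 in the SAR libraries, with no overlap between groups. It fell by 1.82 ± 0.29 (adjusted p = 0.00429) and rose by 1.29 ± 0.30 (adjusted p = 0.0144), the rise not passing without SAR b or c or model b (adjusted p = 0.0553 to 0.0651). The last steps are Gstz1, an isomerase, and Fah, which yields fumarate and acetoacetate. Gstz1 was at 10033, 9535 and 10619 normalised reads in the normal libraries, 3171, 4179 and 7775 in the model libraries and 7685, 10053 and 9137 in the SAR libraries, with model library c at the level of the lowest SAR library: above it on this common scale, below it on the scale of that comparison. It fell by 1.11 ± 0.33 (adjusted p = 0.0333), not without model a or b or normal a, b or c (adjusted p = 0.0569 to 0.118), and its difference with SAR of 0.95 ± 0.32 did not pass (adjusted p = 0.051). Fah was at 7555, 7235 and 9190 normalised reads in the normal libraries, 3872, 4349 and 6297 in the model libraries and 9213, 9938 and 8453 in the SAR libraries, the model lowest and SAR overlapping normal at its upper end. Fah fell by 0.76 ± 0.24 (adjusted p = 0.0414), not without model a or b or normal a, b or c (adjusted p = 0.0811 to 0.148), and rose by 0.98 ± 0.23 (adjusted p = 0.0139), not without SAR b or model b (adjusted p = 0.0623 and 0.0718). Qdpr renews the tetrahydrobiopterin that phenylalanine hydroxylase uses up. Its values were 1394, 1403 and 1398 normalised reads in the normal libraries, 344, 460 and 814 in the model libraries and 1008, 1194 and 1171 in the SAR libraries, with normal libraries nearly alike and the groups apart. Qdpr fell by 1.48 ± 0.29 (adjusted p = 0.00837) and rose by 1.17 ± 0.28 (adjusted p = 0.0162), the rise not passing without SAR b or c or model b (adjusted p = 0.0556 to 0.0654).

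Tryptophan breakdown through the kynurenine pathway held the gene with the largest fall and the 2 largest rises among the 41, and 5 of its 6 genes fell and 5 rose. Tdo2, tryptophan dioxygenase, opens the ring and controls the flow. It was at 44943, 43028 and 45543 normalised reads in the normal libraries, 2997, 4016 and 9353 in the model libraries and 15294, 30535 and 31902 in the SAR libraries. The 3 groups did not overlap, and the lowest SAR library, a, still lay above the highest model library, c. Tdo2 fell by 3.21 ± 0.43 (adjusted p = 0.00254), to 12.3% of the normal mean, and rose by 2.37 ± 0.45 (adjusted p = 0.0066) with SAR, to 58.2%. Both calls held whichever library was left out. Afmid, the formamidase of the next step, was at 237, 142 and 101 normalised reads in the normal libraries, 31.1, 36.8 and 52.7 in the model libraries and 180, 381 and 251 in the SAR libraries, with all model libraries below all others. It fell by 1.93 ± 0.36 (adjusted p = 0.00677) and rose by 2.71 ± 0.31 (adjusted p = 0.00111), whichever library was left out. Afmid had the lowest mean of the 41 genes.

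Kmo, kynurenine monooxygenase, was at 4622, 4738 and 5013 normalised reads in the normal libraries, 1734, 2263 and 2830 in the model libraries and 3144, 4539 and 3789 in the SAR libraries. Its 3 groups did not overlap. It fell by 1.11 ± 0.21 (adjusted p = 0.00698) and rose by 0.79 ± 0.23 (adjusted p = 0.0305), the rise not passing without SAR b or c or model a or b (adjusted p = 0.0885 to 0.118). Kynu, kynureninase, was at 3540, 2768 and 3405 normalised reads in the normal libraries, 838, 1220 and 854 in the model libraries and 2284, 3115 and 2080 in the SAR libraries, with the model lowest. It fell by 1.76 ± 0.20 (adjusted p = 0.00163) and rose by 1.39 ± 0.22 (adjusted p = 0.00324). Haao makes the quinolinate precursor on the way to NAD. It was at 3831, 3611 and 4699 normalised reads in the normal libraries, 1177, 1444 and 2270 in the model libraries and 5548, 5488 and 4401 in the SAR libraries, where 2 SAR libraries lay above all normal ones. Haao fell by 1.37 ± 0.26 (adjusted p = 0.00725) and rose by 1.73 ± 0.25 (adjusted p = 0.00227). The falls and rises of Kynu and Haao held whichever library was left out. Acmsd diverts the pathway away from NAD and passed in no comparison. Its means were 519 ± 375, 264 ± 134 and 316 ± 112 normalised reads (SD, n = 3) in normal, model and SAR. Normal library c stood at 944, against 380 and 234 in the other normal libraries, and without both libraries c the model difference had the opposite sign (0.085, adjusted p = 0.786).

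**Figure D5:**
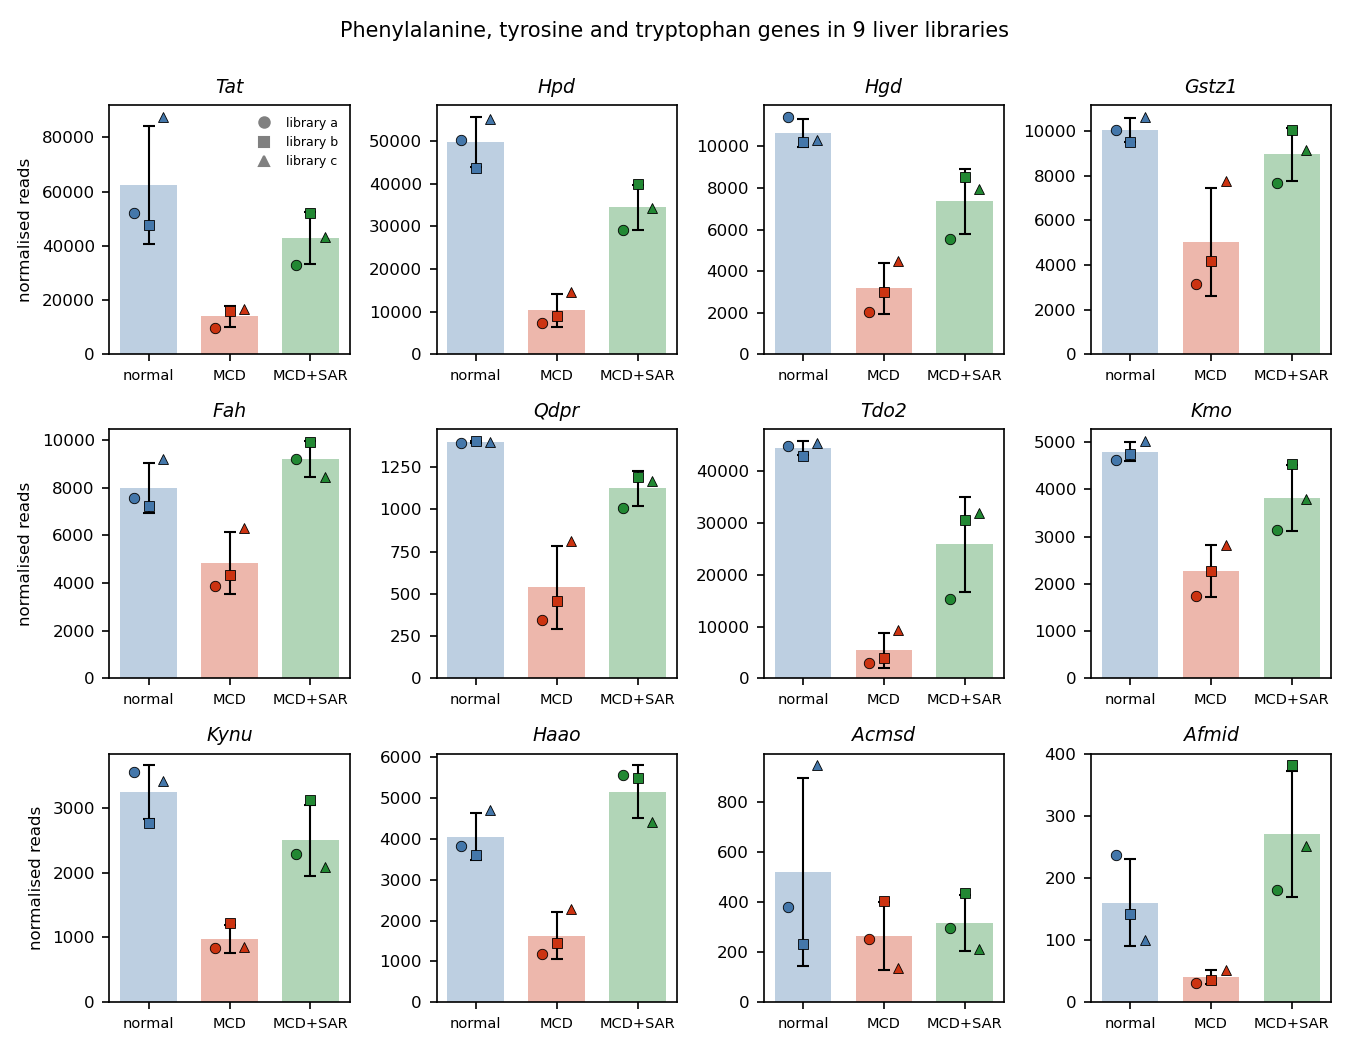
Normalised reads (y axis, from 0) of the 6 phenylalanine and tyrosine genes and the 6 tryptophan genes; symbols are libraries a, b and c, bars are means and whiskers ± SD (n = 3). The model bar is the lowest of each panel, and Acmsd is the panel in which the model libraries overlap the normal ones.

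All 4 genes of histidine breakdown fell in the model, and all 4 rose with SAR. Hal, histidase, removes the amino group. It was at 5145, 4810 and 10466 normalised reads in the normal libraries, 1153, 1720 and 1742 in the model libraries and 2274, 6537 and 3716 in the SAR libraries, with normal library c well above the others, and with the SAR libraries above the model and overlapping normal. Hal fell by 2.08 ± 0.33 (adjusted p = 0.00411), whichever library was left out, and rose by 1.36 ± 0.35 (adjusted p = 0.0219). The rise missed the threshold in the authors' deposited table (adjusted p = 0.132) and did not pass without SAR b or c or model a or b (adjusted p = 0.0563 to 0.0799). Uroc1, urocanase, was at 3494, 3452 and 4500 normalised reads in the normal libraries, 2408, 2797 and 2451 in the model libraries and 4398, 5916 and 3903 in the SAR libraries, the model lowest and SAR overlapping normal. It fell by 0.58 ± 0.17 (adjusted p = 0.0326), not without model a or b or normal a, b or c (adjusted p = 0.0655 to 0.0922), and rose by 0.90 ± 0.20 (adjusted p = 0.0117), whichever library was left out. The fall of Uroc1 missed the threshold in the authors' deposited table (adjusted p = 0.0744).

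Amdhd1, which opens the imidazolone ring, was at 3127, 2748 and 4213 normalised reads in the normal libraries, 1548, 2038 and 1146 in the model libraries and 2675, 4071 and 2681 in the SAR libraries. Here the model lay below both other groups, which overlapped. Amdhd1 fell by 1.12 ± 0.25 (adjusted p = 0.0132) and rose by 1.03 ± 0.25 (adjusted p = 0.0177). The rise did not pass without SAR b (adjusted p = 0.0732) or model a (adjusted p = 0.0539). Ftcd hands the last carbon to folate. Its values were 5456, 5853 and 7705 normalised reads in the normal libraries, 2354, 2611 and 3114 in the model libraries and 4113, 5159 and 3780 in the SAR libraries, with the 3 groups apart. Ftcd fell by 1.24 ± 0.20 (adjusted p = 0.00482) and rose by 0.71 ± 0.19 (adjusted p = 0.0241), and the rise did not pass without SAR b or model a or b (adjusted p = 0.0816 to 0.098).

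Among the genes of serine, glycine and glyoxylate, 4 of 5 fell in the model and 3 rose with SAR. Agxt moves an amino group from alanine to glyoxylate and so keeps oxalate low. It was at 6409, 6799 and 6171 normalised reads in the normal libraries, 1875, 2504 and 2444 in the model libraries and 4819, 4973 and 2800 in the SAR libraries, with the groups apart and SAR library c nearest the model. Agxt fell by 1.52 ± 0.18 (adjusted p = 0.00183), whichever library was left out, and rose by 0.87 ± 0.25 (adjusted p = 0.0301), not without SAR a or b or model a or b (adjusted p = 0.0715 to 0.117). Sds, serine dehydratase, was at 1426, 1301 and 3339 normalised reads in the normal libraries, 1084, 1435 and 760 in the model libraries and 2174, 2723 and 1745 in the SAR libraries. The model and normal libraries overlapped, and the SAR libraries lay above the model. The model difference of -0.80 ± 0.39 did not pass (adjusted p = 0.132), while Sds rose by 1.07 ± 0.26 (adjusted p = 0.0163) with SAR, not without SAR b (adjusted p = 0.0715).

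Sdsl, a relative of Sds, was at 492, 424 and 1023 normalised reads in the normal libraries, 273, 344 and 171 in the model libraries and 205, 319 and 254 in the SAR libraries, where model and SAR covered the same range below normal. It fell by 1.25 ± 0.37 (adjusted p = 0.0336), and with SAR it differed by 0.04 ± 0.28 (adjusted p = 0.917). The fall missed the threshold in the authors' deposited table (adjusted p = 0.144) and did not pass without model a or c or normal a (adjusted p = 0.0618 to 0.0876). Gldc and Amt are parts of the mitochondrial glycine cleavage system. Gldc was at 3002, 3145 and 2032 normalised reads in the normal libraries, 1077, 1500 and 457 in the model libraries and 1460, 2870 and 1339 in the SAR libraries, with model library c the lowest of all and the SAR libraries spread across model and normal. Gldc fell by 1.57 ± 0.41 (adjusted p = 0.0218), not without model a or normal a or b (adjusted p = 0.0568 to 0.0711), and its difference with SAR did not pass (adjusted p = 0.114). Amt was at 643, 458 and 469 normalised reads in the normal libraries, 335, 379 and 325 in the model libraries and 556, 616 and 466 in the SAR libraries, the model lowest and SAR overlapping normal. Amt fell by 0.59 ± 0.17 (adjusted p = 0.0311) and rose by 0.68 ± 0.16 (adjusted p = 0.0161). In the authors' deposited table neither passed (adjusted p = 0.0855 and 0.0515). The fall did not pass without model a, b or c or normal a (adjusted p = 0.0519 to 0.101). The rise did not pass without SAR b (adjusted p = 0.0697) or model a (adjusted p = 0.0576).

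For branched chain amino acids and lysine, 3 of 4 genes fell in the model, Bckdha, Ivd and Aass, and these 3 rose with SAR. Bckdha is the alpha subunit of the E1 part of the branched chain keto acid dehydrogenase. It was at 661, 615 and 609 normalised reads in the normal libraries, 142, 177 and 332 in the model libraries and 296, 638 and 661 in the SAR libraries, with model below normal and SAR library a within the model range. Bckdha fell by 1.63 ± 0.30 (adjusted p = 0.00634), whichever library was left out, and rose by 1.32 ± 0.38 (adjusted p = 0.0307). The rise missed the threshold in the authors' deposited table (adjusted p = 0.0738) and did not pass without SAR b or c or model a or b (adjusted p = 0.1 to 0.116). Its partner Bckdhb, the beta subunit, passed in no comparison with all libraries, with means of 1283 ± 307, 891 ± 449 and 1064 ± 163 normalised reads (SD, n = 3) in normal, model and SAR. Without model library c it was lower in the model (adjusted p = 0.00838) and higher with SAR (adjusted p = 0.00623).

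Ivd, isovaleryl-CoA dehydrogenase of leucine breakdown, was at 2829, 2543 and 2841 normalised reads in the normal libraries, 1230, 1537 and 1939 in the model libraries and 2835, 4215 and 3473 in the SAR libraries. The model lay below both other groups. Ivd fell by 0.83 ± 0.19 (adjusted p = 0.014), not without model b (adjusted p = 0.0573) or normal a (adjusted p = 0.0546). It rose by 1.19 ± 0.22 (adjusted p = 0.00606), whichever library was left out. Aass carries the first 2 steps of lysine breakdown. It was at 12741, 14718 and 13900 normalised reads in the normal libraries, 1865, 2750 and 3568 in the model libraries and 4019, 7179 and 5909 in the SAR libraries, with no overlap between the groups. Aass fell by 2.39 ± 0.26 (adjusted p = 0.00159), whichever library was left out, rose by 1.10 ± 0.29 (adjusted p = 0.0231), not without SAR b or c or model a or b (adjusted p = 0.0693 to 0.0938), and in the SAR group was still below normal by -1.31 ± 0.23 (adjusted p = 0.0359), at 41.4% of the normal mean. That difference did not pass without SAR a, b or c or normal a or b (adjusted p = 0.0696 to 0.123).

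Other genes of these pathways, 74 on 8 lists, were counted the same way. Of 66 tested in the model 36 fell and 5 rose, with a median log2 fold change of -0.82, beside 19.2% lower and 19.7% higher of all genes tested. With SAR against the model 39 of 66 rose and 5 fell, with a median of 0.97, beside 13.5% higher and 16.0% lower of all genes tested. The list of branched chain genes, such as subunits of the dehydrogenase and the enzymes of propionyl-CoA, had 13 of 18 lower and 13 of 18 higher, and the lysine list 4 of 4 each time. Of 9 regulators of hepatic amino acid genes, 6 fell in the model and 5 rose with SAR, and Hnf4a among these is also on the hepatocyte marker list.

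The other pathway genes with the largest changes fell into breakdown and synthesis. Ido2, which acts beside Tdo2, was at 678, 495 and 385 normalised reads in the normal libraries, 65.8, 87.3 and 127 in the model libraries and 360, 620 and 668 in the SAR libraries, and Aadat, a kynurenine and aminoadipate aminotransferase, at 1866, 1836 and 1343 normalised reads in the normal libraries, 348, 456 and 587 in the model libraries and 1361, 1859 and 1674 in the SAR libraries. In both the model libraries lay below all others. Ido2 fell by 2.49 ± 0.29 (adjusted p = 0.00191) and rose by 2.57 ± 0.30 (adjusted p = 0.00115), and Aadat fell by 1.88 ± 0.23 (adjusted p = 0.002) and rose by 1.86 ± 0.21 (adjusted p = 0.00111). Car5a supplies bicarbonate to Cps1. It was at 239, 167 and 209 normalised reads in the normal libraries, 23.9, 33.7 and 160 in the model libraries and 187, 359 and 360 in the SAR libraries, where model library c lay just below the lowest normal library. Car5a fell by 1.99 ± 0.64 (adjusted p = 0.0421) and rose by 2.51 ± 0.62 (adjusted p = 0.0177), and Grhpr, glyoxylate reductase, fell by 1.85 ± 0.28 (adjusted p = 0.00362).

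Pycr1 and Psat1, which take part in making proline and serine, were among the 5 other pathway genes that rose in the model. Pycr1, the last step to proline, was at 0, 3.23 and 12.1 normalised reads in the normal libraries, 28.2, 26 and 36.7 in the model libraries and 11.9, 3.63 and 1.28 in the SAR libraries. It rose by 3.08 ± 0.95 (adjusted p = 0.0367) in the model and fell by 2.58 ± 0.69 (adjusted p = 0.0248) with SAR. Psat1, of serine synthesis, was at 9.59, 6.46 and 30.8 normalised reads in the normal libraries, 90.4, 109 and 94.2 in the model libraries and 17.9, 8.46 and 35.9 in the SAR libraries. It rose by 2.86 ± 0.53 (adjusted p = 0.00681) and fell by 2.37 ± 0.46 (adjusted p = 0.00732). For Pycr1 and Psat1 all model libraries lay above all normal and SAR libraries. Aldh18a1, the first step to proline and ornithine, was at 24, 16.2 and 39.6 normalised reads in the normal libraries, 103, 148 and 41.5 in the model libraries and 42.9, 14.5 and 20.5 in the SAR libraries. It rose by 1.74 ± 0.52 (adjusted p = 0.0331) in the model and fell by 1.81 ± 0.53 (adjusted p = 0.0328) with SAR. Against normal, 1 of 64 of these genes was lower and 1 higher in the SAR group, near the shares of all genes tested (1.66% and 1.61%), so the count says nothing about the lists. Odc1, ornithine decarboxylase, was lower (-1.47 ± 0.29, adjusted p = 0.0404) and Kyat1, a kynurenine aminotransferase, higher by 0.91 ± 0.12 (adjusted p = 0.0217). Odc1 had 1403, 1441 and 1219 normalised reads in the normal libraries, 361, 428 and 940 in the model libraries and 295, 563 and 691 in the SAR libraries, so all libraries of both MCD groups lay below the normal ones. Kyat1 had 894, 830 and 801 normalised reads in the normal libraries, 702, 635 and 669 in the model libraries and 1558, 1494 and 1701 in the SAR libraries, with the SAR libraries above all others.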

How the data were processed

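The authors deposited 2 tables, model against normal and SAR against model, and neither holds a column per sample. A group's signal is its mean read count after DESeq normalisation, per the file headers. The fold in the authors' tables is a ratio of such means, log2 is its logarithm, and the p-values come from the authors' own test. Reads were placed on mm9, according to the submitters' processing notes. The aligner, counter, annotation and strand setting were each not given in the sources used here.

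Each deposited mean is a sum of 3 whole read numbers times constants of the libraries, printed to 15 digits, so the read numbers were solved from it. A solution was accepted only if it gave back its printed mean. The exact return of every mean (15102 of 15102 genes in the normal, 16057 of 16057 in the model and 15032 of 15032 in the SAR group) was thus built in. It does not test the split between libraries. The deposited p depends on that split. It was recomputed for 1232 genes with the normal and 1215 with the SAR group that had been solved without it. It came back for 1232 and 1215 of them, with a dispersion curve fitted on 281 and 270 genes. Where several solutions remained (66 genes in the normal and 44 in the SAR group), the one that gave the deposited p of the authors' DESeq test was taken. Only Apoe, Alb, mt-Co1 and mt-Cytb were not resolved in some library. The recovered reads make up 89.8% of the normal and 82.4% of the SAR group means.

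Values were reads divided by size factors, the authors' within a table and medians of ratios for SAR against normal. The common scale used for printed values differs from them by at most 1.25%. Genes were tested where their mean value over 6 libraries reached 10, with limma 3.58.1 in R 4.3.3, on log2(value + 1) with a variance trend, and with a two-sided threshold of 0.05 after adjustment. Fold changes on this scale understate those of genes with few reads. An exact permutation test of 3 against 3 cannot go below 0.1 and was not used for single genes. Recovery and limma fits were tested on simulated data.

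The members, routes, lists of other pathway genes and marker lists were chosen with earlier results of these data known. Every member is named, with its value in every library where it passed in at least 1 comparison. Of the other pathway genes, up to 6 that passed with the largest change are named per comparison. IDs were matched to symbols for 16490 of 16521. Of 74 other pathway genes 1 had no match, and the 5 kidney markers had none. Alternatives were a pseudocount of 5, no filter, upper quartile scaling, no variance trend, each library left out, and the authors' deposited adjusted p. Leaving out normal library c and model library c together was added after seeing the data.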

Additional observations from a re-analysis of the deposited data

How the results depend on the processing

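Under each alternative run, each of the 41 genes that passed for the model against normal lay lower in the model, and each that passed for SAR against the model lay higher with SAR. The counts for both comparisons stayed within 1.5 times the main one except with libraries left out. With 1 library left out at a time, 22 to 35 of the 41 genes passed for the model against normal, 10 to 35 for SAR against the model and 0 to 7 for SAR against normal. Over all genes tested the ranges were 2415 to 5823, 1572 to 5198 and 5 to 1079. Without the variance trend, 28 genes in all and 0 of the 41 passed for SAR against normal. The cause was not tested. Of the 34 falls, 21 held whichever library was left out, and of the 28 rises 10. Of the 32 falls in the authors' deposited table, 31 are among the 34, and of its 26 rises 24 are among the 28. No paired analysis was possible because the recovered libraries carry no replicate number.

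Signs turned only in differences that did not pass. Without normal library c and model library c, Acmsd in the model was at 0.085 (log2). For SAR against the model, Sdsl was at -0.046 with upper quartile scaling. With 1 library left out, Sdsl ran from -0.24 to 0.27 and Acmsd from -0.048 to 0.74 in that comparison. For SAR against normal the same ranges were -0.043 to 0.29 for Prodh, -0.31 to 0.071 for Amdhd1, -0.081 to 0.17 for Glud1, -0.98 to 0.024 for Acmsd, -0.0012 to 0.68 for Sds, -0.026 to 0.23 for Amt, -0.30 to 0.11 for Gls2 and -0.53 to 0.053 for Bckdha.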
